A study of Mus musculus with 4 samples.

Results

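The genes described here are tumour necrosis factor (Tnf), its receptors Tnfrsf1a and Tnfrsf1b, the adaptors Traf1 and Traf2, the ubiquitin ligases Birc2 and Birc3, and the TNF-induced genes Tnfaip3 and Tnfaip2. They were chosen by name, 9 of the 54532 genes in the deposited table, and each name matched 1 row. Their values in the comparison of MK-8931 with control were known at the choice. Levels and fold changes of the 9 are therefore given as a description. Counts of members past a threshold are not read as a result. RNA was sequenced from tumour-associated macrophages of mice carrying glioblastoma xenografts, sorted as CD45+, Gr1-, CD11b+ and DAPI- cells. The 4 libraries form 2 groups by title, with 2 control libraries and 2 from treatment with MK-8931 (verubecestat), a compound that blocks BACE1, the beta-secretase of amyloid precursor protein. Protocols in the labels give a treatment of 3 days with the compound or vehicle and name glioma stem cells as the treated cells and RNA source. The cell type label names sorted macrophages, so how the compound reached these cells is not settled. No dose, mouse strain beyond "GBM mice" or number of animals per library is stated in the labels, so the spread between libraries may be technical.

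TNF is a cytokine that macrophages make in large amounts when activated, first as a membrane protein that a protease then releases. It binds TNFR1 (Tnfrsf1a), a death-domain receptor found on most cells, and TNFR2 (Tnfrsf1b), which has no death domain and is prominent on leukocytes. The receptors recruit TRAF2 with the cellular inhibitors of apoptosis cIAP1 (Birc2) and cIAP2 (Birc3), whose ubiquitin chains on RIPK1 lead to activation of NF-kB. Traf1, Birc3, Tnfaip3 and Tnfaip2 are themselves NF-kB targets, and A20 (Tnfaip3) trims ubiquitin chains and restrains the pathway.

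Library totals lay between 18257930 and 20179875 counts, and 18258 to 20075 genes were detected per library. All 9 listed macrophage markers were present in every library, with Csf1r, the receptor for colony-stimulating factor 1, at 1490 to 1619 CPM (counts scaled to library size). Of the 9, 4 were lower in both treated libraries than in both controls, among them the complement gene C1qa at 2692 and 4177 CPM in controls and 2173 and 2359 CPM with MK-8931, and 2 were higher, Ptprc and the integrin gene Itgam (220 and 180 against 328 and 345 CPM). Of 5 neural and glioma markers, Sox2, Olig1 and Olig2 had 0 counts in all 4 libraries and Gfap was at most 0.269 CPM, while Nes was present, at 119.8 and 126 CPM in controls and 69.1 and 85.4 CPM with MK-8931. The deposited table lists mouse genes, so RNA of xenografted cells from another species would largely go uncounted. The 0 counts of Sox2, Olig1 and Olig2 therefore do not show that tumour RNA was absent. Of 5 natural killer cell markers, 4 had 0 counts in all libraries. Neutrophil markers stood apart between the groups. Their summed level over 12 genes was 82.6 to 84.3 CPM in controls and 460 to 787 CPM with MK-8931, 7 of the 12 were higher in both treated libraries than in both controls, and Elane had 0 counts throughout. Csf3r was the largest part of the sum in every library, at 64.2 and 56.5 CPM in controls and 217 and 292 CPM with MK-8931. S100a9 was at 1.51 and 4.85 CPM in controls and 87.8 and 248 CPM with MK-8931. Camp, Ngp and Mpo overlapped between the groups, at 0.872 CPM or less. Ly6g, which codes for an antigen that the Gr1 antibody binds, had 0 counts in 3 libraries and 0.761 CPM in MK-8931 2. Monocyte markers also differed, with a sum of 89.8 to 155 CPM in controls and 351 to 409 CPM with MK-8931. The summed level of 6 microglial markers was lower, at 1640 and 2007 CPM in controls and 1345 and 1506 CPM with MK-8931, with 3 of the 6 lower without overlap. For scale, the groups did not overlap for 41.2% of all tested genes, and 21.2% of all tested genes were higher without overlap. The fibroblast sum over 5 genes overlapped between the groups, at 429 and 171 CPM in controls and 418 and 651 CPM with MK-8931. Fewer cells of a type and less RNA per cell cannot be told apart in these bulk libraries. The part of neutrophil, monocyte, microglial, fibroblast or Nes-expressing cells in the values below was not tested.

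The promoters are shown because several of these genes are textbook NF-kB targets and because in 2 pairs of paralogs, Traf1 with Traf2 and Birc3 with Birc2, the first gene had the larger difference between the groups. RefSeq start sites (GRCm38.p6) were found for all 9 genes, and the 150 bases before the start site are printed 5′ to 3′ on the gene's strand. Tnfaip3 and Birc2 have 2 start sites in that table, and the one nearer to the gene's start in the deposited table is shown. The deposited genes start further upstream for Tnfaip3 (at 19015657), Tnfaip2 and Tnfrsf1a, so those windows lie inside the genes as counted. The windows of Birc3 and Birc2 overlap the deposited genes in part. In the first pair of sequences capitals mark matches, on either strand, to the kappa-B consensus GGGRNWYYCC, to the AP-1 site TGANTCA and to TATAA. They belong to Tnf (chr17:35202008-35202157, minus strand) and Tnfaip3 (chr10:19015411-19015560, minus strand).
Tnf: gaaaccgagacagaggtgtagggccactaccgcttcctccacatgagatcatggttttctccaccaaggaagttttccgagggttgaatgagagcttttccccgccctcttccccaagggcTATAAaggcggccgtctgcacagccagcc
Tnfaip3: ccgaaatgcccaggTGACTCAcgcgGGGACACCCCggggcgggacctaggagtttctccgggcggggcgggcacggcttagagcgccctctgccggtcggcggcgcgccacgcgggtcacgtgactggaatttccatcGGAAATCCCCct
Tnf held TATAA at 29 to 25 bases before the start site and no match to this kappa-B consensus in the 300 bases searched. Sites further upstream or of another sequence were not searched for, so a kappa-B site of Tnf is not excluded. Tnfaip3 held 2 kappa-B matches, GGGACACCCC on the gene's strand and GGGGATTTCC on the other strand. A TGACTCA lay beside the first of them. Among windows of 250 bases before to 50 after the start site, 4.51% of all 32851 held the kappa-B consensus and 7.81% held TGANTCA, and Tnfaip3 was the only one of the 9 genes with either. TATAA was in 24.9% of all windows and in those of 4 of the 9 genes, for Birc2 in the window that is not shown. In the next 4 sequences the capitals mark CG dinucleotides, for Traf1 (chr2:34961773-34961922), Traf2 (chr2:25546941-25547090), Birc3 (chr9:7873171-7873320) and Birc2 (chr9:7837058-7837207), all on the minus strand.
Traf1: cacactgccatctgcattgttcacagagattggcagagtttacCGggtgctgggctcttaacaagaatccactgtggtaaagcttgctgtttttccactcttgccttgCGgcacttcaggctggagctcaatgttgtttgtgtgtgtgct
Traf2: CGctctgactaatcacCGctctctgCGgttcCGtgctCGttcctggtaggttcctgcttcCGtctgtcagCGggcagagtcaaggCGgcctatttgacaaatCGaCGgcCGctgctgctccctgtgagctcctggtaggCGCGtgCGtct
Birc3: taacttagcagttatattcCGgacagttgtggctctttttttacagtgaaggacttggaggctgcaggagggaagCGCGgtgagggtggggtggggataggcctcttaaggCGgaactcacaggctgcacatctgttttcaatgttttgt
Birc2: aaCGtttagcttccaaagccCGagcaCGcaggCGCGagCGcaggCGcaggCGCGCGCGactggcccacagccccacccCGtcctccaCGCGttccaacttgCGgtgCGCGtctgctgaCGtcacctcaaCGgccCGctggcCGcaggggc
Traf1 held 2 CG dinucleotides and Birc3 held 4, against a median of 4 over all such windows. Their paralogs were richer in CG, with 14 in Traf2, a number that 17.9% of all windows reached, and 21 in Birc2, which 5.12% reached. The other windows held 19 in Tnfaip3, 15 in Tnfaip2, 8 in Tnfrsf1b and 6 each in Tnf and Tnfrsf1a. Over the whole 300 bases, the start site of Birc2 that is not shown had 21 against 34, and that of Tnfaip3 6 against 22. A match is a run of letters and was not tested as a binding site.

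In control macrophages the ligand and its receptors were the most abundant of the 9 transcripts per length. On the deposited FPKM scale (counts scaled to gene length and a constant per library), Tnf had a control mean of 79.5 ± 8.03 (SD, n = 2), Tnfrsf1b of 78.1 ± 8.17 and Tnfrsf1a of 54.1 ± 1.13. Tnf and Tnfrsf1b overlapped in the controls and could not be ordered, and both were above Tnfrsf1a. Tnfaip3 followed at 34.1 ± 1.56 FPKM, Tnfaip2 at 15.2 ± 2.15 and Birc3 at 6.84 ± 1.10. Traf2 at 5.24 ± 0.323 and Birc2 at 3.91 ± 0.0976 lay near the middle of the 13932 tested genes, at percentiles 52.9 and 46.2 of control FPKM. Traf1 was lowest, at 0.593 ± 0.115 FPKM and percentile 16.6, while Tnf stood at percentile 95.8. In both MK-8931 libraries the order at the top was another: Tnf, at or next to the top in controls, stood behind Tnfrsf1b, Tnfrsf1a and Tnfaip3.

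**Figure D1:**
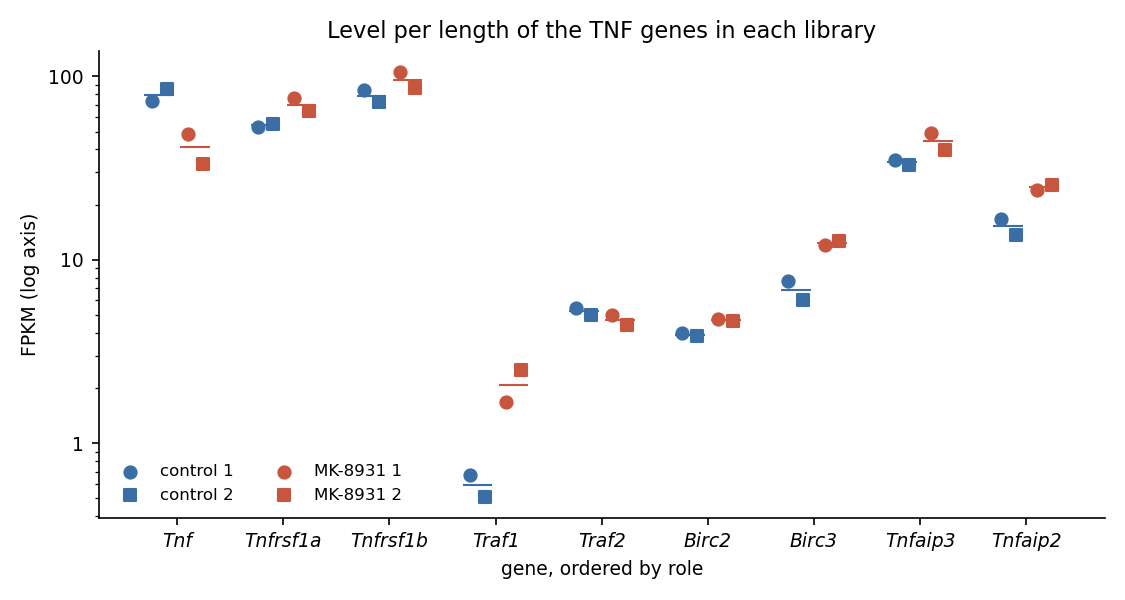
FPKM of each of the 9 genes (log axis) in the 2 control libraries (blue) and the 2 MK-8931 libraries (red), with circles for replicate 1, squares for replicate 2 and a line at each group mean. Tnf is the gene whose treated points lie clearly below its controls, at 33.2 and 48.7 against 73.8 and 85.1 FPKM, and Traf1 shows the widest gap upward.

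Tnf, the ligand (ENSMUSG00000024401, chr17:35199381-35202007, minus strand), was lower with MK-8931. Control libraries held 2259 and 2724 Tnf counts and treated libraries 1566 and 1010, or 121.6 and 139 against 80.3 and 54.9 CPM. Both treated libraries lay below both controls, with MK-8931 2 the lowest. The fitted level with MK-8931 was 0.519 times that in controls (log2 fold change −0.95, SE 0.19). The treated library left in the fit set its size, at −1.26 without MK-8931 1 and −0.71 without MK-8931 2. The microglial marker sum was lower in the treated libraries too, at 1345 and 1506 against 1640 and 2007 CPM. The lymphotoxin genes on either side of Tnf were scarcely detected. Lta, which codes for lymphotoxin alpha and lies 1157 bases from Tnf, had 9 and 3 counts in controls and 0 in both MK-8931 libraries, which allows up to 0.154 and 0.163 CPM. Ltb, for lymphotoxin beta, 3060 bases away on the other strand, had 3 and 8 counts in controls and 49 and 50 with MK-8931, opposite in direction to Tnf. The 3 genes with the profile most like that of Tnf over the 4 libraries, among 9994 genes of at least 5 CPM, were Klf2, Chst1 and Klf4. Likeness was the Euclidean distance between centred log2(CPM + 1) profiles, at 0.08 for Klf2, 0.09 for Chst1 and 0.13 for Klf4. Chst1 is a sulfotransferase gene, and Klf2 and Klf4 code for zinc-finger transcription factors. Klf2 was at 311 and 348 CPM in controls and 211 and 150 CPM with MK-8931.

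The receptors were slightly higher, with little difference between them. Tnfrsf1a, for the death-domain receptor TNFR1 (ENSMUSG00000030341, chr6:125349362-125362484, plus strand), was at 139 and 142 CPM in controls and 198 and 168 CPM with MK-8931. Tnfrsf1b, for TNFR2 (ENSMUSG00000028599, chr4:145213463-145246870, minus strand), was at 322 and 275 CPM in controls and 406 and 332 CPM with MK-8931. For both genes the treated libraries lay above the controls, and for Tnfrsf1b the nearest pair, MK-8931 2 and control 1, was close. The fitted difference was 1.31-fold for Tnfrsf1a (log2 fold change 0.39, SE 0.13) and 1.24-fold for Tnfrsf1b (0.31, SE 0.15). Without MK-8931 1 the value for Tnfrsf1b was 0.15. Per length, Tnfrsf1b exceeded Tnfrsf1a by 1.32 to 1.57 times in controls and by 1.34 to 1.39 times with MK-8931, ranges that overlapped. The ratio of ligand to receptor differed between the groups. Tnf FPKM was 1.39 and 1.55 times that of Tnfrsf1a in controls and 0.641 and 0.516 times with MK-8931.

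Of the adaptors, Traf1 differed between the groups and Traf2 overlapped. Traf1 lacks the RING domain of the other TRAF proteins and joins complexes of TRAF2 and the cIAPs (ENSMUSG00000026875, chr2:34941750-34961772, minus strand). Traf1 counts were 111 and 88 in controls against 291 and 408 in treated libraries, or 5.98 and 4.50 against 14.9 and 22.2 CPM. Both treated libraries lay far above both controls, and they differed from each other more than the controls did. The fitted fold was 3.54 (log2 fold change 1.82, SE 0.28), or 1.50 on the log2 scale without MK-8931 2. Traf2, the adaptor that brings the cIAPs to the receptors (ENSMUSG00000026942, chr2:25517982-25546940, minus strand), was at 28.1 and 25.5 CPM in controls and 25.7 and 22.7 CPM in treated libraries. The groups overlapped, with a log2 fold change of −0.15 (SE 0.17). Traf1 stayed the less abundant of the pair: Traf2 FPKM was 8.11 and 9.80 times that of Traf1 in controls and 2.98 and 1.77 times with MK-8931. A pseudogene inside Traf2, Gm13433, had 2 to 10 counts per library.

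The cIAP genes lie next to each other, 11634 bases apart on the minus strand of chromosome 9, and their levels differed between the groups by unequal amounts. Birc3, for the NF-kB-inducible cIAP2 (ENSMUSG00000032000, chr9:7848699-7873186), was at 38.4 and 30.3 CPM in controls and 60.8 and 64.1 CPM with MK-8931. The treated pair was tight and stood well above the controls, at 1.82-fold (log2 fold change 0.86, SE 0.16). Birc2, for cIAP1 (ENSMUSG00000057367, chr9:7818227-7837064), was at 18.3 and 17.5 CPM in controls against 21.9 and 21.5 CPM in treated libraries. Its groups did not overlap either, but the fitted fold was 1.21 (log2 fold change 0.27, SE 0.18). Within each library the FPKM of Birc3 was 1.92 and 1.58 times that of Birc2 in controls and 2.55 and 2.73 times with MK-8931. Reads of these similar genes may have been shared by the authors' counting, so the ratio is uncertain to that extent. Tmem123, the next coding gene, had 3551 and 3934 counts in controls and 3391 and 3867 with MK-8931.

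The TNF-induced genes Tnfaip3 and Tnfaip2 were higher in both treated libraries. Tnfaip3, for the ubiquitin-editing inhibitor A20 (ENSMUSG00000019850, chr10:19000910-19015657, minus strand), was at 255 and 237 CPM in controls and 360 and 289 CPM with MK-8931. The fitted fold was 1.32 (log2 fold change 0.40, SE 0.14), with 0.22 on the log2 scale without MK-8931 1, so the higher treated library gave much of it. Tnfaip2, an NF-kB target with a role in membrane protrusions (ENSMUSG00000021281, chr12:111442469-111455018, plus strand), was at 83.9 and 68.1 CPM in controls and 121.1 and 129 CPM in treated libraries. The fold was 1.64 (log2 fold change 0.72, SE 0.15), the third largest of the upward differences after Traf1 and Birc3. An antisense gene over Tnfaip2, Gm40578, had 0 to 11 counts, and no source here says whether the counting used strand. Tnf FPKM was 2.10 and 2.58 times that of its inhibitor Tnfaip3 in controls and 0.985 and 0.836 times with MK-8931.

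**Figure D2:**
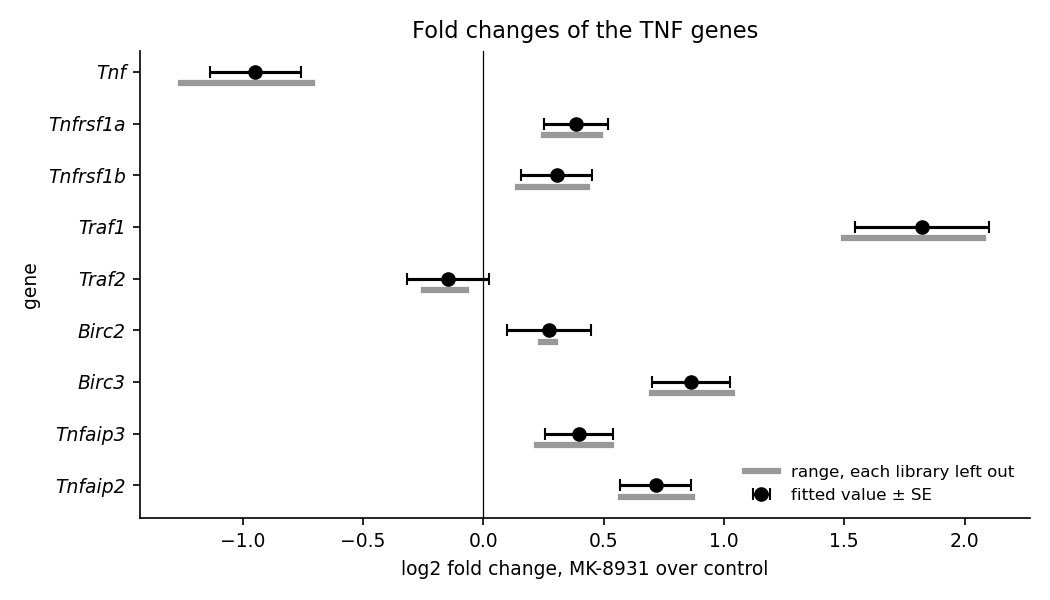
Fitted log2 fold change of MK-8931 over control for each gene, with the standard error (black), and the range of the value when each of the 4 libraries is left out (grey). Tnf and Traf2 are left of 0, the other 7 genes right of it, and no grey range crosses 0.

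Over the 9 genes, 7 were higher in both treated libraries than in both controls, 1 (Tnf) was lower and 1 (Traf2) overlapped. Among all 13932 genes tested, 41.2% had groups that did not overlap, and 21.2% were higher in this way. The median log2 fold change of the 9 was 0.39, against 0.00 for all genes. At least 1.5-fold differences were seen upward for Traf1, Birc3 and Tnfaip2 and downward for Tnf, while 16.6% of all tested genes differed by that much in either direction. By edgeR's quasi-likelihood test with Benjamini-Hochberg adjustment over all genes, 1 of the 9, Traf1, was past the threshold of 0.05, beside 0.998% of all genes. With all libraries, DESeq2 called 4 of the 9 and limma-voom 3, beside 2.82% and 1.08% of all genes that each gave an adjusted p. With no filter on low counts edgeR called 4, beside 366 genes higher and 176 lower of 23654 tested. The number of members called also changed with each library left out. Nothing is read from these counts, since the comparison itself led to the choice of genes. The values of the 9 genes stood beside the higher neutrophil sum of 460 to 787 CPM in the treated libraries.

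**Figure D3:**
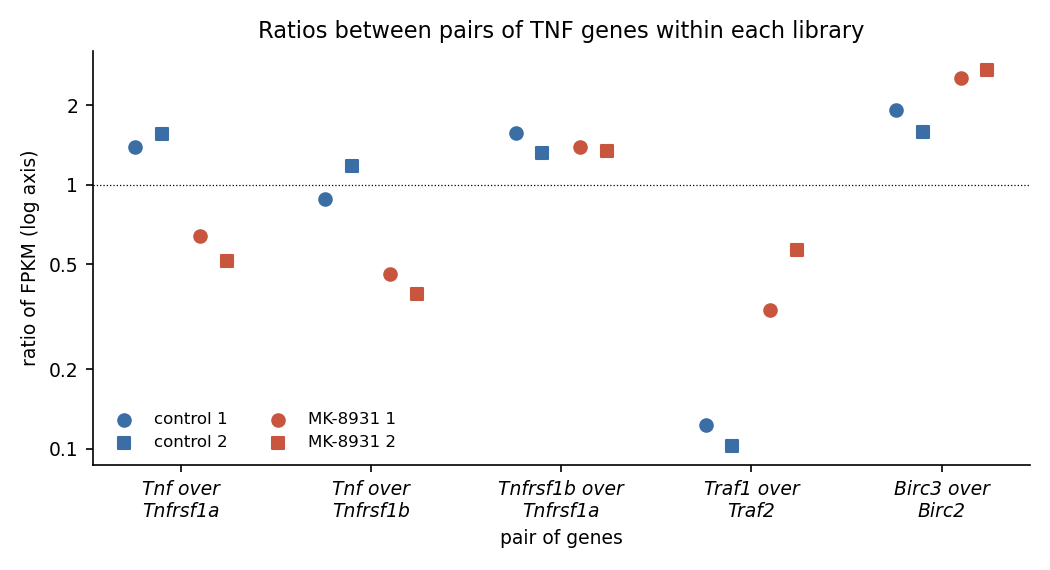
Ratio of FPKM between pairs of genes within each library (log axis, dotted line at equal levels), blue for controls and red for MK-8931. The ratio of Tnf to either receptor is lower in both treated libraries, those of Traf1 to Traf2 and Birc3 to Birc2 are higher, and that of the receptors to each other overlaps between the groups.

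The rest of the pathway was described with 11 lists of other genes, 132 in all, of which 111 were abundant enough to test. By edgeR's quasi-likelihood test, adjusted over all genes, 1 of the 111 rose and 0 fell, where 0.861% of all genes rose and 0.136% fell. At an unadjusted p under 0.05, 13 were higher and 5 lower, where 10.8% of all genes were under it in either direction. DESeq2 called 7 and limma-voom 2, beside 2.82% and 1.08% of all genes that each gave an adjusted p. The median log2 fold change was 0.08. The gene that rose was Steap4, a TNF-induced metalloreductase, at 1.02 and 1.48 CPM in controls and 9.95 and 15.3 CPM with MK-8931 (log2 fold change 3.32, SE 0.36, adjusted p = 0.00407). Of the other 5 tested Tnfaip genes, 0 passed by edgeR, DESeq2 or limma-voom, and 0 had an unadjusted p under 0.05. Leaving out control 1 gave 5 pathway genes higher, control 2 gave 3 and MK-8931 1 gave 2.

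Log2 fold changes ran from −1.26 to 3.16 among ligands of the TNF superfamily and from −0.75 to 2.53 among its receptors. The lowest ligand value came from a gene of 2 to 20 counts per library, with an SE of 0.98. The highest receptor value was that of Tnfrsf9, with 9 to 86 counts per library. By edgeR, 0 of 9 ligands and 0 of 15 receptors passed (with 3 ligands and 7 receptors at an unadjusted p under 0.05, and 2 and 3 called by DESeq2, beside the shares of 10.8% and 2.82% over all genes). The limma-voom test called 1 ligand and 0 receptors. Tnfsf14, for the T cell costimulator LIGHT, was at 7.81 and 3.99 CPM in controls and 17.0 and 19.8 CPM with MK-8931 (log2 fold change 1.65, SE 0.31, adjusted p = 0.0522 by edgeR). The few counts of Ltb gave a fitted value of 3.16 on the log2 scale (SE 0.70, adjusted p = 0.0902 by edgeR). Tnfrsf9, for the costimulatory receptor 4-1BB, was at 1.02 and 0.460 CPM in controls and 3.95 and 4.68 CPM with MK-8931 (adjusted p = 0.0664 by edgeR). Tnfrsf12a, for the TWEAK receptor Fn14, was at 35.2 and 43.1 CPM in controls and 23.0 and 23.6 CPM with MK-8931 (adjusted p = 0.0993 by edgeR). Tnfrsf12a and Tnf were thus lower in both treated libraries while Ltb, Tnfsf14 and Tnfrsf9 were higher. The median log2 fold change was −0.08 for the ligands and 0.35 for the receptors.

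Lists of genes that act on TNF after transcription had median log2 fold changes of 0.09 (release) and 0.08 (messenger stability and translation). Of 8 tested genes of TNF release, 0 passed (edgeR, with 0 at an unadjusted p under 0.05 and 0 by DESeq2 or limma-voom), and their log2 fold changes ran from −0.20 to 0.21. The sheddase gene Adam17 was at 328 and 303 CPM in controls and 351 and 341 CPM with MK-8931 (log2 fold change 0.13, SE 0.12). Adam10, another sheddase gene, went the other way, at 380 and 372 CPM in controls and 337 and 317 CPM with MK-8931 (adjusted p = 0.640). The intramembrane protease gene Sppl2a was at 195 and 203 against 176 and 174 CPM (adjusted p = 0.675, both by edgeR). Of 13 genes that control the stability and translation of Tnf messenger RNA, 0 passed, again with 0 at an unadjusted p under 0.05 and 0 by either other tool. The smallest p-values there belonged to Zfp36l2, of the family of proteins that bind AU-rich elements (log2 fold change 0.36, SE 0.17, adjusted p = 0.529), and Khsrp, an RNA-binding protein of messenger decay (0.24, SE 0.14, adjusted p = 0.603, both by edgeR).

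The signalling complex below the receptors showed small values. Of 12 receptor complex adaptors and kinases, such as Tradd, Ripk1 and the subunits of the linear ubiquitin ligase, 0 passed (edgeR, 0 at an unadjusted p under 0.05, 0 by DESeq2 and limma-voom), with a median log2 fold change of 0.03. The kinase subunit gene Ikbkb had 0.27 (SE 0.14) and Tab2, an adaptor of the kinase TAK1, −0.17 (SE 0.13). Among 10 other TRAF proteins and TRAF partners 0 passed, with 3 at an unadjusted p under 0.05 and 0 by DESeq2 or limma-voom. Of these, Traf3ip3 was at 3.50 and 5.16 CPM in controls and 7.39 and 10.6 CPM with MK-8931, and Traf3ip2, an adaptor of the interleukin-17 receptor, at 5.33 and 5.01 against 8.98 and 8.86 CPM (adjusted p = 0.236 and 0.276 by edgeR). Of 11 A20 partners and deubiquitinases 0 passed, with 3 at an unadjusted p under 0.05, 1 by DESeq2 and 0 by limma-voom. Tnip3, an A20-binding inhibitor, was at 12.1 and 7.56 CPM in controls and 23.6 and 17.0 CPM with MK-8931, and its relative Tnip1 at 82.9 and 75.7 against 102 and 116 CPM (adjusted p = 0.149 and 0.231 by edgeR).

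Log2 fold changes in the death and kinase arms ran from −0.14 to 0.42, beside 0.39 for Tnfrsf1a and 0.40 for Tnfaip3. Of 8 genes of the cell death arm 0 passed (edgeR, 1 at an unadjusted p under 0.05, 0 by DESeq2 and limma-voom), although all 8 had log2 fold changes above 0, from 0.02 to 0.42. Cflar, the caspase-8 inhibitor FLIP, was at 133 and 121 CPM in controls and 162 and 156 CPM with MK-8931, and Mlkl, the executor of necroptosis, at 13.9 and 15.5 against 17.3 and 22.2 CPM. Of 9 other IAP family genes and IAP antagonists and of 10 genes of the MAP kinase arm, 0 passed, with 0 at an unadjusted p under 0.05 and 0 by DESeq2 or limma-voom. Their medians were 0.03 and −0.01. Naip2 and Naip5, similar genes of one cluster whose reads may be shared, had log2 fold changes of 0.26 and 0.14. The kinase genes Map3k5 and Map3k8 had 0.35 and 0.22, and the latter overlapped between the groups.

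**Figure D4:**
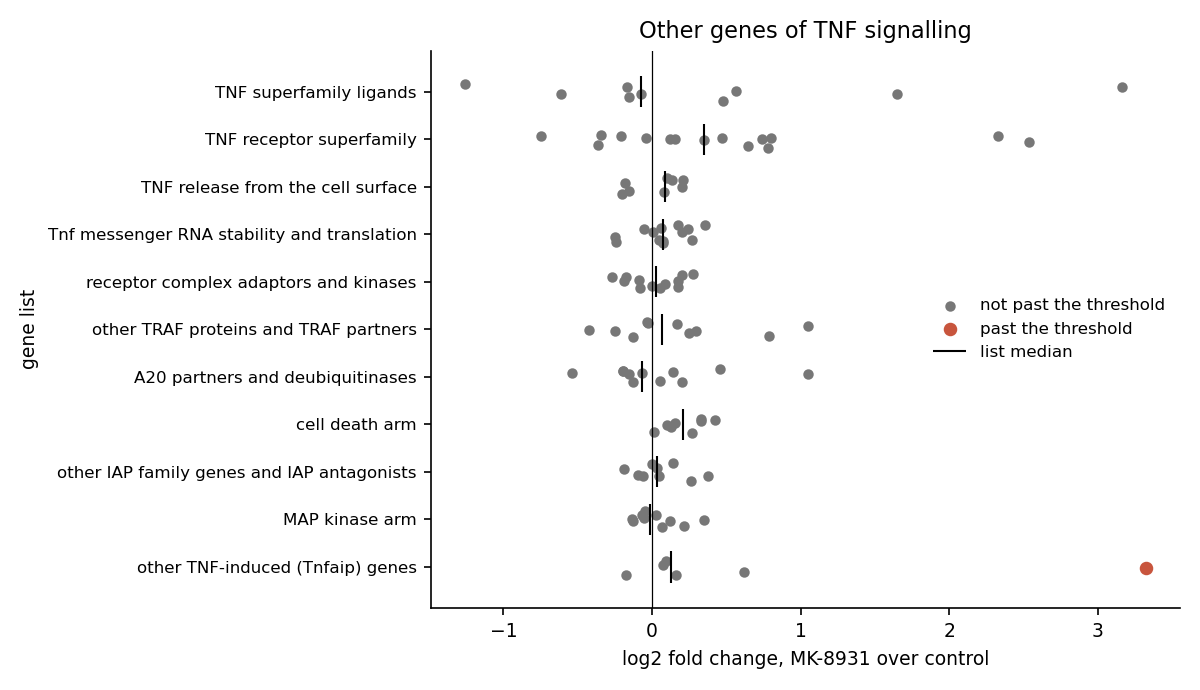
Log2 fold change of MK-8931 over control for each tested gene of the 11 pathway lists, with the list median as a bar and the gene past the adjusted threshold (Steap4, at 3.32) in red. The lists of ligands and receptors spread widely, with genes of few counts, such as Ltb and Tnfrsf9, among their extremes. Those of release, messenger stability, the receptor complex and the MAP kinase arm lie between −0.27 and 0.36.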

How the data were processed

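The authors deposited, per the file headers, raw counts (whole numbers for each gene and library) and FPKM values. In each library the FPKM equals the count divided by gene length times 1 constant, so FPKM served for levels per length and was not tested. Relative to scaling by the library total, that constant was 0.985 and 1.03 in controls and 0.984 and 0.985 with MK-8931. CASAVA and the build mm9 are named by the submitters' processing notes, but the coordinates of all 9 genes, and of 98.3% of the 54409 gene identifiers shared with GENCODE M21, are those of GRCm38. The aligner, counting tool and use of strand were not given in the sources used here. A further 7 columns of the authors' comparison, 4 of them values per library, were not used here.

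Counts were analysed with edgeR 4.0.16 (R 4.3.3): filterByExpr with a minimum count of 10 left 13932 genes, TMM factors were 0.971 to 1.01, and groups were compared by the two-sided quasi-likelihood F test with robust dispersions and Benjamini-Hochberg adjustment at 0.05. CPM values are TMM-scaled, and an SE is the size of the log2 fold change over the root of its F value. The script was tested on simulated data. Precision is limited by 2 libraries per group, and the limits given for 0 counts (3 counts) cover counting error only. The replicates of a group differed by more than counting noise (chi-square per degree of freedom 26.8 for controls and 15.7 for MK-8931). Alternatives were DESeq2 1.42.0, limma-voom (limma 3.58.1), library size alone, no filter, each library left out, and the replicate number as a block.

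The members and the pathway and marker lists were chosen with earlier results of these data known. Named genes are the 9 members, and from each list the 2 genes with the smallest p that passed in each direction or, in a list with none past the threshold, the 2 lowest p-values, with the 3 genes nearest to Tnf in profile. Lta, Adam17, the overlapping genes, Tmem123 and the marker genes were named outside this rule.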

Additional observations from a re-analysis of the deposited data

How the results depend on the processing

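The direction of all 9 members held under every alternative run. With DESeq2, limma-voom, library size alone, no filter on low counts and the replicate block, each of their log2 fold changes stayed within 1 SE of the value reported. Leaving out each library gave −1.26 to −0.71 for Tnf, 0.25 to 0.49 for Tnfrsf1a, 0.15 to 0.43 for Tnfrsf1b, 1.50 to 2.07 for Traf1, −0.25 to −0.07 for Traf2, 0.24 to 0.30 for Birc2, 0.70 to 1.03 for Birc3, 0.22 to 0.53 for Tnfaip3 and 0.57 to 0.87 for Tnfaip2. Counts of calls depended on the setting, and the cause was not tested. The main counts were 120 genes higher and 19 lower, 1 pathway gene higher and 0 lower, and 1 member. With no filter on low counts they were 366 and 176, 6 and 1, and 4. With DESeq2 they were 266 and 96, 6 and 1, and 4. With limma-voom the lower genes were 30, the higher pathway genes 2 and the members 3. With each library left out, the genes higher ranged from 85 to 520 and those lower from 10 to 243, the pathway genes from 1 to 5 higher and 0 to 1 lower, and the members from 0 to 4. The libraries share replicate numbers but no stated origin, and the deviations of same-numbered libraries had a correlation of 0.24. A replicate block on that number gave 468 and 275, 10 and 2, and 6. Of the named pathway genes not called in the main test, Tnfsf14, Ltb, Tnfrsf9, Tnfrsf12a, Zfp36l2, Traf3ip3, Tnip3 and Tnip1 were past the threshold with that block (adjusted p from 0.00441 for Tnfsf14 to 0.0481 for Traf3ip3). Of the named pathway genes, Naip5 turned to −0.082 without control 2 and Map3k8 to −0.10 without MK-8931 1, in ranges of −0.082 to 0.39 and −0.10 to 0.46 with each library left out. Below a level of 0.153 to 0.163 CPM, that of 3 counts, a gene such as Lta could not be followed.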
